A study of Mus musculus with 2 samples.

Results

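The AP-1 genes Fos, Fosb, Fosl2, Jun, Junb and Jund were followed in single-nucleus RNA sequencing of the mouse thalamus after sham operation or cortical ablation injury. These 6 genes were chosen by name from the 32285 gene rows of the count tables, with earlier results on Fos and Jun in these data known, so their differences between the libraries are described and not tested. The mice were female C57BL/6J with an age given as 3 months, and the thalamus of the operated side was taken on day 21 after surgery. In the injury group, sensory and motor cortex was removed on that side by aspiration, and sham mice had a burr hole without ablation. Each group was 1 library made from equal numbers of nuclei of 4 mice, and nothing in the counts marks which mouse a nucleus came from. No value below therefore has a replicate check, and the intervals given, at 95%, hold the error of counting and nothing else. Those of levels and ratios count every UMI as independent. Where several UMIs lie in 1 nucleus, they are too narrow even for the sampling of nuclei.

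AP-1 is a dimeric transcription factor built from basic leucine zipper proteins. Fos proteins must pair with a partner of the Jun family, while Jun proteins can also pair with each other. In neurons Fos, Fosb and Junb are immediate early genes, switched on for a short time by calcium entry and by ERK, CREB and SRF signalling, and Fos RNA is widely used to mark recently active cells. Jun is also known from neurons with cut or damaged axons, where its protein is phosphorylated by JNK. Jund is expressed in many cell types with less dependence on stimulation, and Fosl2 encodes Fra-2, a Fos family member that is induced more slowly.

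The sequences just before the RefSeq start sites show how the members differ in the CRE half-site TGACG, bound by CREB, and in the site TGACATCA, known from the Jun promoter as a place where Jun and ATF2 bind. RefSeq promoters of GRCm38.p6 were matched for all 6 genes, and the 250 bases before the start were searched on both strands for these letters. The full CRE, which is the palindrome TGACGTCA, was searched in the same way. The AP-1 site that Fos and Jun dimers bind was searched on both strands as TGANTCA. The TATA box, here TATAA, was searched on the strand of the gene. The last 150 bases before the start are given 5′ to 3′ on the gene's strand for the 4 members that held a motif, with the motifs in capitals. They lie at chr12:85473740-85473889 (plus strand, Fos), chr7:19310046-19310195 (minus strand, Fosb), chr8:84978749-84978898 (minus strand, Junb) and chr4:95052223-95052372 (minus strand, Jun).
Fos: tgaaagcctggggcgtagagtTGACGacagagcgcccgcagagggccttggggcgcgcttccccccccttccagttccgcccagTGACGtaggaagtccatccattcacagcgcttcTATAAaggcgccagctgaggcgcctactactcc
Fosb: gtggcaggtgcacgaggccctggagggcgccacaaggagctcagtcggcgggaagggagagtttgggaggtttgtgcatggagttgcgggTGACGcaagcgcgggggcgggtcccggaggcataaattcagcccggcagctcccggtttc
Junb: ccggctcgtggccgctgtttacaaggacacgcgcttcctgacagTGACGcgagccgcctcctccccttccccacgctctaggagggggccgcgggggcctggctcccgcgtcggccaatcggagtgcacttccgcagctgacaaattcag
Jun: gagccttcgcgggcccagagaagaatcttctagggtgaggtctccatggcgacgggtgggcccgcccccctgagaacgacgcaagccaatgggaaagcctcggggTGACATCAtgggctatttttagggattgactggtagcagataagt

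Fos held the CRE half-site at 129 to 125 and at 66 to 62 bases before its start, and the TATA box at 33 to 29. Fosb held the half-site at 60 to 56 bases and Junb at 106 to 102 bases. Jun held the Jun and ATF2 site at 45 to 38 bases and no CRE half-site. Fosl2 and Jund held none of the 5 motifs in this window, and no member held the full CRE or the AP-1 site. Of all 32851 RefSeq promoters, 17.8% held the CRE half-site, 1.55% the full CRE, 6.75% the AP-1 site, 2.93% the Jun and ATF2 site and 16% the TATA box. The half-site is part of the full CRE, so these counts overlap. RefSeq and GENCODE M21 place the start of Fosl2 671 bases apart and that of Jund 1210 bases apart, so the window read for those genes depends on the annotation. A match is only a run of letters in this window.

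The sham library held 16373 nuclei after filtering, with a median of 7190 UMIs (unique molecular identifiers, each counting 1 captured RNA molecule), and the injury library 21777 nuclei with a median of 6810. The libraries shared 101 barcodes, without which the log2 ratio of injury over sham in glutamatergic nuclei was -1.81 for Fos and 0.25 for Jun, and doublets were kept. Glutamatergic nuclei had at least 2 UMIs of Slc17a6 and Slc17a7, the vesicular glutamate transporters, and none of Gad1 or Gad2, which gave 5402 sham and 5773 injury nuclei with medians of 10746 and 11329 UMIs. GABAergic nuclei had at least 2 UMIs of Gad1 and Gad2, which make GABA, and none of Slc17a6, which gave 1479 and 2617 nuclei with medians of 7251 and 7717 UMIs. Glial nuclei had no UMI of these transporters and enzymes and at least 3 UMIs of the leading glial list. Their UMIs of the neuronal genes Rbfox3, Snap25 and Syt1 were also no more than those of that list. The gates left 8338 sham and 10645 injury nuclei outside, in which the neuronal genes Rbfox3, Snap25 and Syt1 summed to 3554 and 3289 counts per 1000000 UMIs (CPM), beside 3979 and 3725 CPM in glutamatergic nuclei. Each glial class was gated on its own list, so the high level of that list there follows from the gate. It was 5330 and 5159 CPM for the oligodendrocyte list in oligodendrocytes and 3431 and 3078 CPM for the astrocyte list in astrocytes.

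The level of a gene in a class is its UMIs summed over the nuclei of the class and then divided by the class total, given as CPM. Levels are compared between classes and libraries for 1 gene at a time, never between genes. In bulk sums of this kind, fewer nuclei with a transcript and fewer transcripts per nucleus cannot be told apart, so the nuclei with a UMI are given as well.

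In glutamatergic nuclei the Fos family was lower in the injury library, by 2.02-fold to 5.21-fold, while Jun was slightly higher and Junb and Jund slightly lower. Fos, Fosb and Fosl2 were at least 2-fold lower, and no member was at least 2-fold higher. Of the 18133 genes with at least 50 UMIs in these nuclei, 0.232% were at least 2-fold lower and 1.65% at least 2-fold higher in the injury library. The interval of the log2 ratio lay below 0 for 5 members and above 0 for 1, beside 23.9% and 21.7% of all genes measured. The members had a median log2 ratio of -0.71 beside -0.01 over all genes measured. The genes were proposed from this contrast, so nothing is read from any of these comparisons.

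Fos, on chromosome 12 from 85473890 to 85477273 (GRCm38, plus strand), encodes the founding Fos protein. Glutamatergic nuclei held 342 Fos UMIs in the sham and 111 in the injury pool, which is 5.32 CPM (4.77 to 5.91) against 1.51 CPM (1.24 to 1.81). The level was 3.53-fold higher in the sham library, a log2 ratio of injury over sham of -1.82 (-2.14 to -1.51). At least 1 Fos UMI was found in 243 sham nuclei, or 4.50%, and in 105 injury nuclei, or 1.82%. The log2 ratio of these shares was -1.31, outside the interval of the UMI ratio. With nuclei thinned to 2000 UMIs, leaving out 11 sham and 10 injury nuclei that were shallower, the shares were 1.02% and 0.272%, and the order of the libraries was the same at equal depth.

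Fosb, on chromosome 7 from 19302696 to 19310051 (minus strand), encodes a Fos protein with a long-lived truncated form known from chronic stimulation. It was sparse, with 50 sham and 11 injury UMIs, or 0.777 and 0.149 CPM. Its log2 ratio was -2.38 (-3.47 to -1.42), from levels that in neither library stood above those of oligodendrocytes beyond counting error. Fosl2, on chromosome 5 from 32135801 to 32157842 (plus strand), had 143 and 81 UMIs, or 2.22 and 1.10 CPM. For Fosl2 the log2 ratio came to -1.02 (-1.43 to -0.61), and 2.04% of sham and 1.23% of injury nuclei had a UMI.

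Jun, on chromosome 4 from 95049034 to 95052222 (minus strand), stood apart from the Fos family. Its UMIs in glutamatergic nuclei numbered 280 in the sham library and 379 in the injury library, giving 4.35 CPM (3.86 to 4.89) against 5.14 CPM (4.64 to 5.69). The level was 1.18-fold higher in the injury library, with a log2 ratio of 0.24 and an interval (0.01 to 0.47) that only just left out 0. A Jun UMI was found in 4.63% of sham and 5.85% of injury nuclei, and at 2000 UMIs per nucleus in 0.877% and 1.16%.

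Junb, on chromosome 8 from 84974484 to 84978718 (minus strand), encodes a Jun protein that is induced together with Fos. It had 176 and 152 UMIs, or 2.74 and 2.06 CPM, with a log2 ratio of -0.41 (-0.73 to -0.09). A Junb UMI was found in 2.67% (2.25 to 3.13) of sham and 2.30% (1.93 to 2.72) of injury nuclei, intervals that overlap. Jund, on chromosome 8 from 70698949 to 70700616 (plus strand), had 545 and 509 UMIs, or 8.47 and 6.90 CPM, with a log2 ratio of -0.30 (-0.47 to -0.12). Both differences were small beside those of the Fos family. With the glutamatergic gate raised to 4 UMIs the Junb log2 ratio was -0.056 (-0.58 to 0.47), and the Jun and Jund intervals then also took in 0.

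The 3 Jun family genes overlap another gene on the opposite strand in GENCODE M21, and whether counting used the strand is not given in the sources used here, so reads of such partners may not be kept apart. Junos, antisense to Jun, had 1481 and 1696 UMIs in glutamatergic nuclei, a log2 ratio of 0.00 (-0.10 to 0.10). Prdx2, which encodes a peroxiredoxin and overlaps Junb, went from 1618 sham to 1376 injury UMIs, with a ratio of -0.43 (-0.54 to -0.33) beside the -0.41 of Junb. Gm11175, antisense to Jund, had 14 and 4 UMIs.

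**Figure D1:**
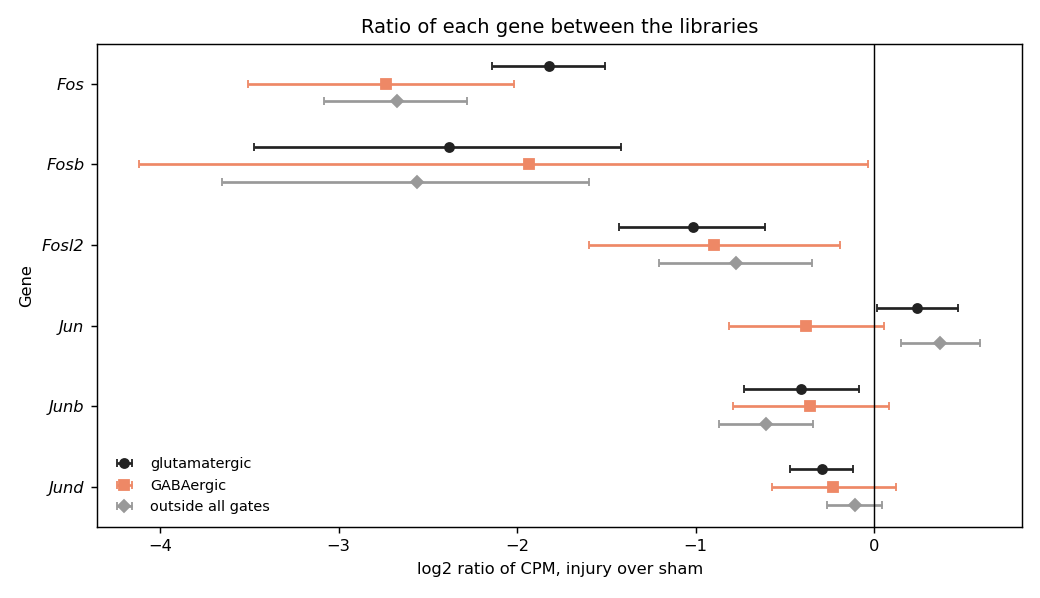
Log2 ratio of CPM, injury over sham, for each of the 6 genes in glutamatergic nuclei (circles), GABAergic nuclei (squares) and nuclei outside all gates (diamonds), with 95% counting intervals. Fos lies between -1.82 and -2.73 in the 3 sets of nuclei, while Jun lies above 0 in glutamatergic nuclei and outside the gates and below 0 in GABAergic nuclei, where its interval takes in 0.

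Together the 6 genes gave 1536 UMIs in glutamatergic nuclei of the sham pool and 1243 in those of the injury pool. Fos made up 22.3% of these UMIs (20.2 to 24.4) in sham nuclei against 8.93% (7.40 to 10.7) in injury nuclei. Jun made up 18.2% and 30.5% (27.9 to 33.1), and Jund 35.5% and 40.9%. These are shares of 1 sum, so a lower Fos count raises the share of every other member, and Jund had a higher share at a lower CPM. A nucleus with any member was somewhat less frequent in the injury library, at 17.8% beside 19.8% of sham nuclei. These shares were not taken at equal depth.

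The Fos difference was largest among nuclei with several Fos UMIs. In sham glutamatergic nuclei, 188 had 1 Fos UMI, 33 had 2, 13 had 3, 3 had 4 and 6 had 5 or more, with a highest count of 9. In injury nuclei, 99 had 1 Fos UMI and 6 had 2, and none had more. Nuclei with at least 2 UMIs thus held 45.0% of sham and 10.8% of injury Fos UMIs. A Fos-containing nucleus had 1.41 UMIs on average in sham and 1.06 in injury nuclei.

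For Jun the libraries were alike in this respect. There were 223, 24 and 3 sham nuclei and 300, 35 and 3 injury nuclei with 1, 2 and 3 Jun UMIs, and the highest count was 3 in both libraries. Nuclei with at least 2 UMIs held 20.4% and 20.8% of Jun UMIs, and a Jun-containing nucleus had 1.12 UMIs on average in each library. Fosl2 followed Fos, with 8 sham nuclei and no injury nucleus holding 3 or more UMIs, and all 11 injury nuclei with Fosb had 1 UMI. Junb had 8 sham and 2 injury nuclei with 3 or more UMIs, and Jund 3 and 3.

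**Figure D2:**
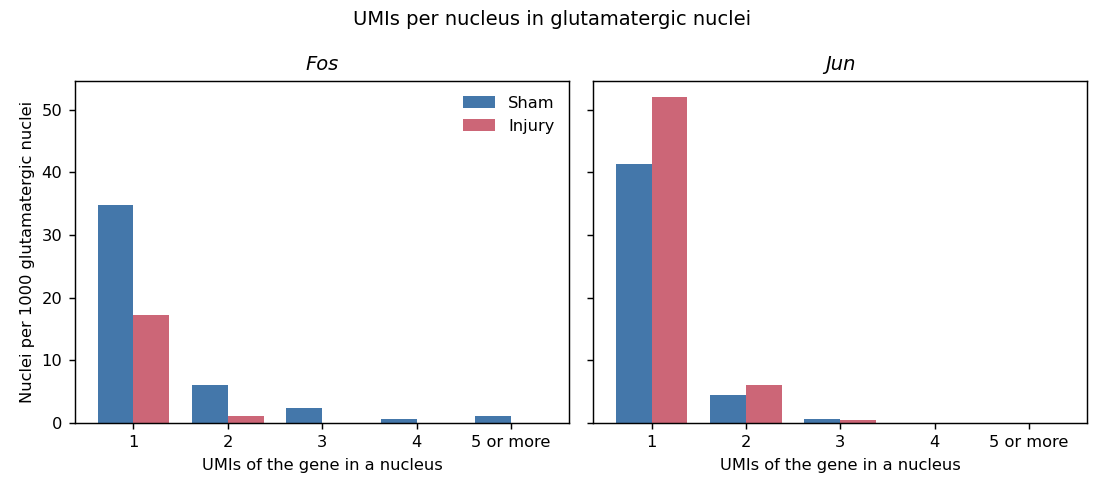
Glutamatergic nuclei with 1, 2, 3, 4 and 5 or more UMIs of Fos (left) and Jun (right), per 1000 glutamatergic nuclei of the sham (blue) and injury (red) library. The Fos bars at 3 and more UMIs are filled by the sham library alone (22 nuclei), whereas the Jun bars have the same shape in both libraries.

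In GABAergic nuclei Fos was the member with the lowest ratio, and the other members were lower in the injury library by less. The 73 sham and 21 injury UMIs of Fos gave 6.12 CPM (4.80 to 7.70) against 0.921 CPM (0.570 to 1.41). The level was 6.65-fold higher in the sham library, a log2 ratio of -2.73 (-3.51 to -2.02). Fos UMIs were found in 55 sham nuclei, or 3.72%, and 19 injury nuclei, or 0.726%. The Fos ratio was lower than in glutamatergic nuclei, but the intervals overlap and the difference was not tested.

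Of the 5 members with at least 50 UMIs in GABAergic nuclei, only Fos was at least 2-fold lower and none was at least 2-fold higher, beside 0.401% and 2.21% of the 15214 genes measured there. Fosl2 had 36 and 37 UMIs, or 3.02 and 1.62 CPM, with a log2 ratio of -0.90 (-1.60 to -0.19). Jun had 77 and 113 UMIs, or 6.46 and 4.95 CPM, and its log2 ratio of -0.38 (-0.81 to 0.05) had the opposite sign to that in glutamatergic nuclei. Its interval took in 0. The log2 ratio was -0.36 (-0.79 to 0.08) for Junb and -0.23 (-0.57 to 0.12) for Jund. Fosb had 8 and 4 UMIs, too few to describe further.

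The nuclei outside all gates gave a further set that shares no nucleus with the classes. Fos had 314 sham and 64 injury UMIs there, a log2 ratio of -2.67 (-3.08 to -2.28), and Fosb 50 and 11 UMIs. Jun had 268 and 450 UMIs, with a ratio of 0.37 (0.15 to 0.59) on the log2 scale. Junb was lower, at -0.61 (-0.87 to -0.35). As in glutamatergic nuclei, the Fos family was lowest and Jun alone was above 0. These nuclei come from the same pools, so they are not a second sample of either group.

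Among neuron classes in 1 library, Junb was the member that differed most. Its level was 2.30-fold higher in GABAergic than in glutamatergic nuclei of the sham library, a log2 ratio of 1.20 (0.79 to 1.60), and 2.38-fold higher in the injury library, at 1.25 (0.89 to 1.61). Jun was 1.48-fold higher in GABAergic nuclei in the sham library, at 0.57 (0.19 to 0.94), and did not differ beyond counting error in the injury library, at -0.05 (-0.37 to 0.25). Fos did not differ between these classes beyond counting error in the sham library, at 0.20 (-0.18 to 0.57). In the injury library it was lower in GABAergic nuclei, at -0.71 (-1.46 to -0.03). That value rests on 21 GABAergic UMIs, and its interval only just left out 0.

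Oligodendrocytes carried Jun and Jund and few UMIs of the other members. These nuclei, 886 sham and 2063 injury nuclei with medians of 1609 and 1748 UMIs, had 2 and 0 Fos UMIs. That is 2 of 886 nuclei, or 0.226%, and 0 of 2063, which allows a share of up to 0.145% of nuclei with a UMI, by the 3 counts that a count of 0 allows. Fosb had 1 and 1 UMIs, Fosl2 0 and 2, and Junb 0 and 4. Neuronal RNA was present in these nuclei, since the neuronal markers reached 7.48% and 8.07% of their level in glutamatergic nuclei of the same library. The glial gate limits these same markers, so the values are not a free measure of neuronal RNA.

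The few Fos and Fosb UMIs of oligodendrocytes give a background for neuronal shares, from nuclei that the gate kept low in neuronal markers. Nuclei were thinned to 1000 UMIs, which left out 112 sham and 258 injury oligodendrocytes and 1 glutamatergic nucleus of each library that were shallower. At this depth a Fos UMI was expected in 0.539% of sham glutamatergic nuclei and 0.163% of sham oligodendrocytes. In the injury library these shares were 0.136% and 0, which at this depth does not part the classes. In CPM the classes were apart, because the same 3 counts would be 0.721 CPM in injury oligodendrocytes, under the 1.24 CPM at the lower end for glutamatergic nuclei. For Fosb the classes were not apart in either library, at 0.777 CPM in glutamatergic nuclei and 0.609 CPM in oligodendrocytes of the sham library and at 0.149 and 0.240 CPM in the injury library, where each oligodendrocyte value rests on 1 UMI.

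Jun was higher in oligodendrocytes than in glutamatergic nuclei of either library. Its 27 sham and 66 injury UMIs gave 16.4 CPM (10.8 to 23.9) against 15.9 CPM (12.3 to 20.2), which is 3.78-fold and 3.09-fold the glutamatergic level. Jund had 58 and 113 UMIs, or 35.3 and 27.2 CPM, which is 4.17-fold and 3.93-fold the glutamatergic level. At 1000 UMIs per nucleus, Jun was expected in 1.47% and 1.72% of oligodendrocytes and in 0.442% and 0.584% of glutamatergic nuclei. Between the libraries neither gene differed beyond counting error in oligodendrocytes, with log2 ratios of -0.05 (-0.72 to 0.65) for Jun and -0.38 (-0.85 to 0.10) for Jund.

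Astrocytes, 165 sham and 422 injury nuclei, had 1 and 8 Fos UMIs, 1 and 14 Junb UMIs and none of Fosb or Fosl2. The 8 Fos UMIs of the injury library, 6.32 CPM, put astrocytes 4.20-fold above the glutamatergic nuclei of that library, a log2 ratio of 2.07 (0.82 to 3.10). Between the libraries the Junb levels were 2.68 and 11.1 CPM, with an interval of the log2 ratio of -0.67 to 7.45. Jun had 7 and 13 UMIs, or 18.7 and 10.3 CPM. For the 4 members with UMIs in astrocytes, the interval of the log2 ratio between the libraries took in 0.

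Oligodendrocyte precursors, 79 sham and 122 injury nuclei, had 4 and 9 Jun UMIs and 1 and 6 Jund UMIs, and no UMI of the other members. Microglia, 24 sham and 135 injury nuclei, had no Fos or Fosb UMI, 0 and 2 Jun UMIs, 2 and 4 Junb UMIs, 2 and 4 Jund UMIs and 1 and 0 Fosl2 UMIs. For Fos, 0 of 135 injury microglia allows up to 2.22% of nuclei with a UMI, and at a median of 1160 UMIs this does not limit how many expressed it.

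**Figure D3:**
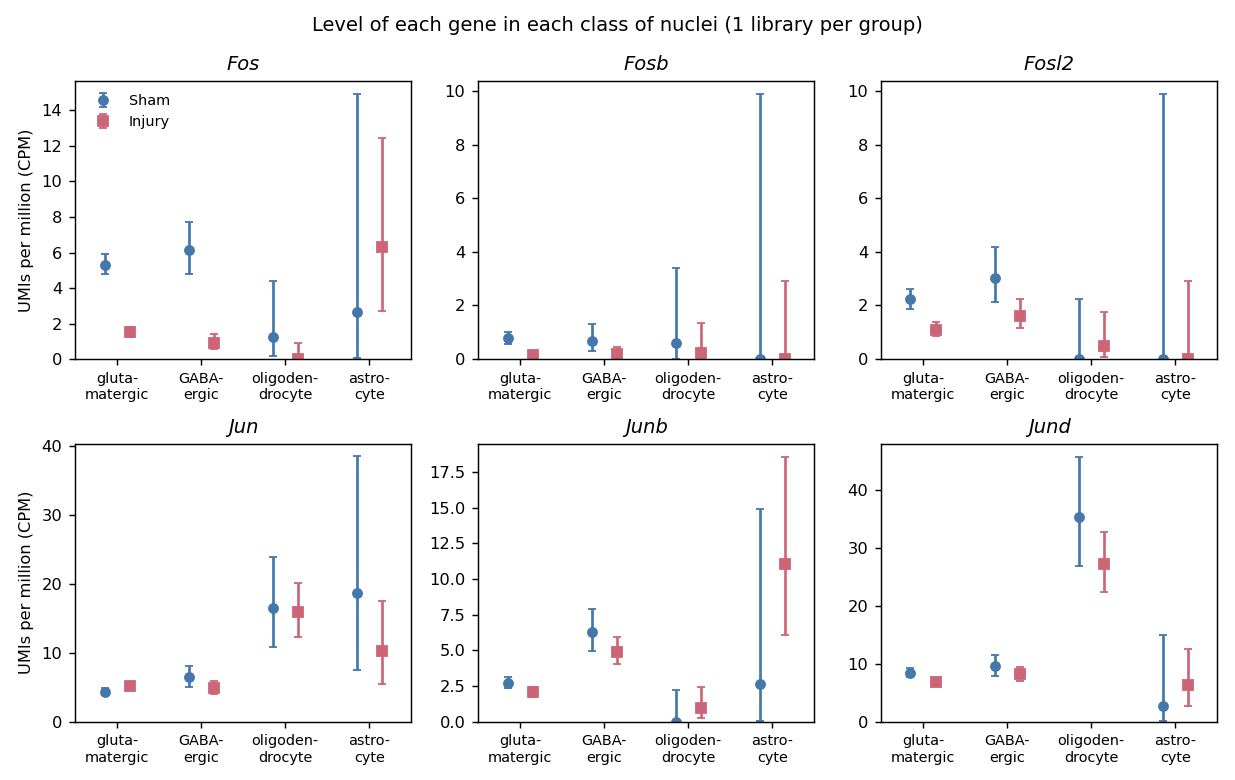
Level of each gene in CPM in glutamatergic, GABAergic, oligodendrocyte and astrocyte nuclei of the sham (blue circles) and injury (red squares) library, with exact Poisson intervals at 95%. Fos is highest in sham neurons among classes with 20 or more UMIs, and Jun and Jund are higher in oligodendrocytes than in glutamatergic nuclei. Astrocyte intervals are wide, since no member had more than 14 UMIs there.

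The lower Fos level was seen in most neuron types that could be told apart by marker panels. Panels were short lists of type markers taken from the earlier analysis of these data, and a nucleus entered the panel with most UMIs where it had at least 3. Of the 9 glutamatergic panels with at least 50 nuclei in each library, Fos was lower in the injury library in 7, with an interval below 0 in 6. Jun was higher in 6 of the 9, but no panel's Jun interval left out 0. The 1915 sham and 1942 injury nuclei in no panel had 79 and 126 Jun UMIs, a log2 ratio of 0.56 (0.14 to 0.99), and for Fos 117 and 30 UMIs, at -2.08 (-2.71 to -1.49).

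The lowest Fos ratio among these glutamatergic panels was in nuclei of the Ebf3/Sim1/Lmx1a panel, 199 sham and 222 injury nuclei. They had 31 Fos UMIs in 16 sham nuclei and 4 in 4 injury nuclei. The levels of 12.3 and 1.51 CPM gave a log2 ratio of -3.03 (-5.00 to -1.53). With 5 panel UMIs required in place of 3 it was -1.93 (-5.23 to 0.46), an interval that takes in 0. Fosl2 was lower there as well, with 21 UMIs in 14 sham nuclei and 8 in 7 injury nuclei. Its log2 ratio was -1.47 (-2.86 to -0.24). Nuclei with Prox1, 618 and 501 in number, had 67 and 9 Fos UMIs, or 8.22 and 1.30 CPM, a log2 ratio of -2.66 (-3.85 to -1.65).

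The Prkcd/Adgrf5 panel held the most nuclei, 1139 and 1224, and a smaller difference. It had 52 and 32 Fos UMIs, or 3.02 and 1.60 CPM, a log2 ratio of -0.91 (-1.59 to -0.25). Its sham level was also below that of the panels with the largest differences. The log2 ratio was -2.15 in the C6/Tspear panel, -1.62 in the Col12a1/Ror1 panel and -1.80 in the Lypd6b/Hpse2 panel. The last was -0.35 (-2.07 to 1.45) with 5 panel UMIs required. Fos was too sparse to compare in the Nox4/Adgrg6, Chat/Slc5a7 and Pde11a panels, which had 0 to 5 UMIs in each library.

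With the panels of each class weighted as in the sham library, the Fos ratio was -1.82 in glutamatergic and -3.01 in GABAergic nuclei. Panels for which either library held fewer than 50 nuclei were dropped from this weighting. In GABAergic nuclei this took out the Prdm16/Ano2/Cpa6 panel, which held 6 of the 21 injury Fos UMIs. The GABAergic value therefore does not cover all nuclei behind the unweighted ratio of -2.73.

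Among GABAergic nuclei the Pax6/Otof/Cdh23 panel, 179 sham and 236 injury nuclei, had 22 and 0 Fos UMIs. Fos was thus at least 10.2-fold higher in the sham library, counted against a floor of 3 UMIs in the injury library. With the counting error of the sham UMIs as well, the log2 ratio was bounded only at -2.93. Fos UMIs were in 6.70% of its sham nuclei and in 0 of 236 injury nuclei, which allows a share of up to 1.27%. The other members were lower in this panel too, with 19 and 6 Jun UMIs, a log2 ratio of -2.14 (-3.76 to -0.76), 16 and 8 Junb UMIs and 12 and 2 Fosl2 UMIs. With 2 panel UMIs required, the Jun ratio of this panel was -1.09 (-2.13 to -0.090). Nuclei of the Six3/Ubash3b panel had 17 and 5 Fos UMIs, a log2 ratio of -2.62 (-4.42 to -1.13), and 25 and 34 Jun UMIs, at -0.42 (-1.20 to 0.39). The 830 sham and 1323 injury GABAergic nuclei in no panel had 34 and 10 Fos UMIs, at -2.44 (-3.62 to -1.39). Jun had 32 and 50 UMIs there, at -0.03 (-0.69 to 0.66). The Prdm16/Ano2/Cpa6 panel had 9 sham and 295 injury nuclei, so its 6 Fos and 23 Jun UMIs in the injury library have no sham counterpart.

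**Figure D4:**
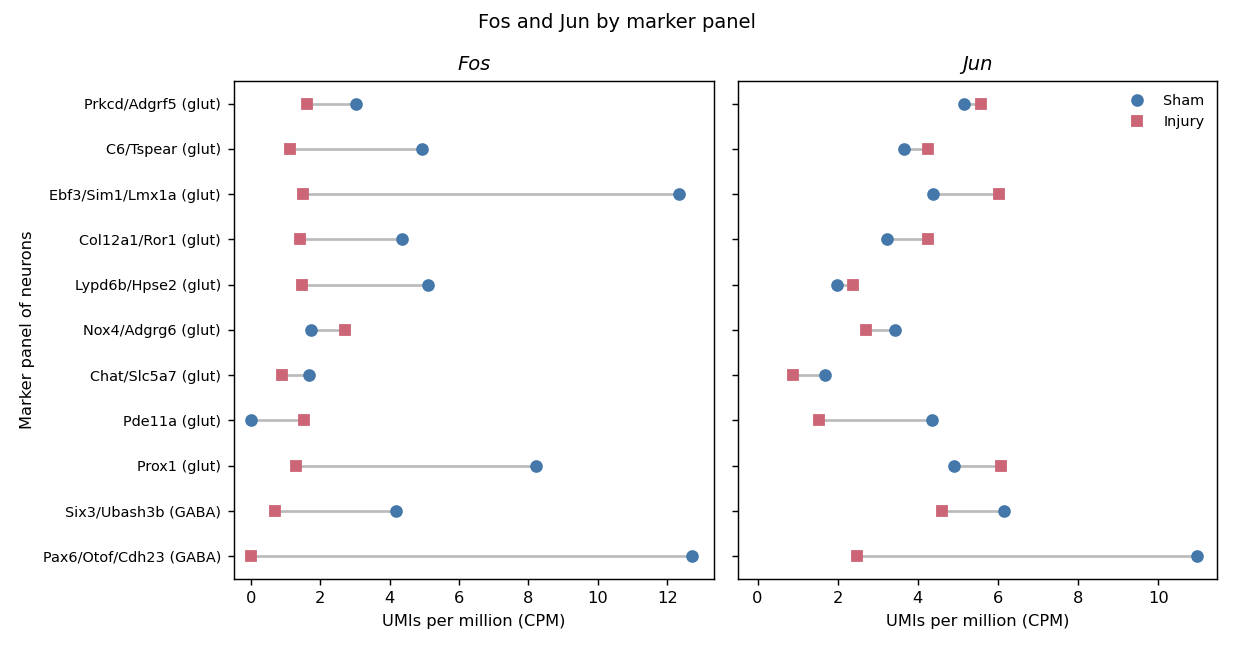
Fos (left) and Jun (right) in CPM by marker panel of glutamatergic (glut) and GABAergic (GABA) nuclei, for the sham (blue circles) and injury (red squares) library, joined by a line per panel. The 11 panels shown had at least 50 nuclei in each library. The Fos sham level reaches 12.7 CPM in the Pax6/Otof/Cdh23 panel, whose injury level is 0, while the Jun squares lie to the right of the circles in 6 panels and to the left in 5.

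In sham glutamatergic nuclei, members of the Fos family were found with each other and with Junb more often than nuclear depth gives, as were Fosb and Fosl2 with Jund, while no pair with Jun had an interval above 1. For each pair of genes, the nuclei with a UMI of both were counted and set against the number expected if the genes were placed independently among nuclei of the same depth decile. Of the 15 pairs, 8 had an interval above 1 in sham glutamatergic nuclei and 2 in injury glutamatergic nuclei. None of the 5 pairs with Jun did in either library. Over all other genes measured, 2.76% of sham and 0.888% of injury intervals with Fos lay above 1, and 0.938% and 1.94% with Jun. Fewer injury than sham nuclei had Fos, 105 beside 243, or Fosb, 11 beside 40, so fewer pairs could pass there.

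In sham nuclei Fos and Fosb were found together in 24 nuclei, 11.5 times the number expected (7.39 to 17.2). Fos and Fosl2 shared 36 nuclei, 6.65 times the number expected (4.65 to 9.20). Fos and Junb shared 39 nuclei, 5.51 times (3.92 to 7.53), so that 16.0% of nuclei with Fos also had Junb, beside 2.04% of those without. Fosb and Junb shared 16 nuclei, 13.7 times (7.85 to 22.3), and Fosb and Fosl2 14 nuclei, 15.4 times (8.42 to 25.8). Jund was found with Fosb in 12 nuclei, 2.98 times (1.54 to 5.20), and with Fosl2 in 22 nuclei, 2.04 times (1.28 to 3.08). Fos and Jun shared 16 nuclei, 1.25 times (0.71 to 2.03), and Fos and Jund 33 nuclei, 1.32 times (0.91 to 1.86). At 2000 UMIs per nucleus the sham values were 30.0 for Fos and Fosb, 11.5 for Fos and Fosl2 and 13.8 for Fos and Junb. These rest on 2.85, 2.89 and 4.45 expected nuclei with both genes, and they lie above the intervals of the unthinned values.

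In injury nuclei the numbers were smaller. Fos and Fosb shared 3 nuclei, with an interval of 2.88 to 40.8 times the number expected. Fos and Junb shared 7, or 2.49 times with an interval that reached down to 1, and Fos and Fosl2 3, or 1.96 times (0.40 to 5.71). Fos and Jun shared 10 nuclei, 1.45 times (0.70 to 2.67), a value whose interval overlaps that of the sham library. Whether any pair differed between the libraries was not tested.

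Nuclei with many members were mostly from the sham library. Of the sham glutamatergic nuclei 42, or 0.777%, had UMIs of 3 or more members, beside 6 injury nuclei, or 0.104%. Among them 11 sham nuclei had 4 members, 1 had 5 and 1 had all 6, and no injury nucleus had more than 3. Of nuclei with a Fos family UMI, 29.8% of sham and 23.3% of injury nuclei also had a Jun family UMI. In GABAergic nuclei 9 sham and 4 injury nuclei had 3 or more members. Fos and Junb were again found together in sham GABAergic nuclei, in 12 nuclei or 4.50 times the number expected (2.32 to 7.85). There Fos and Jun shared 8 nuclei, 2.77 times (1.19 to 5.45), the 1 pair with Jun whose interval lay above 1.

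**Figure D5:**
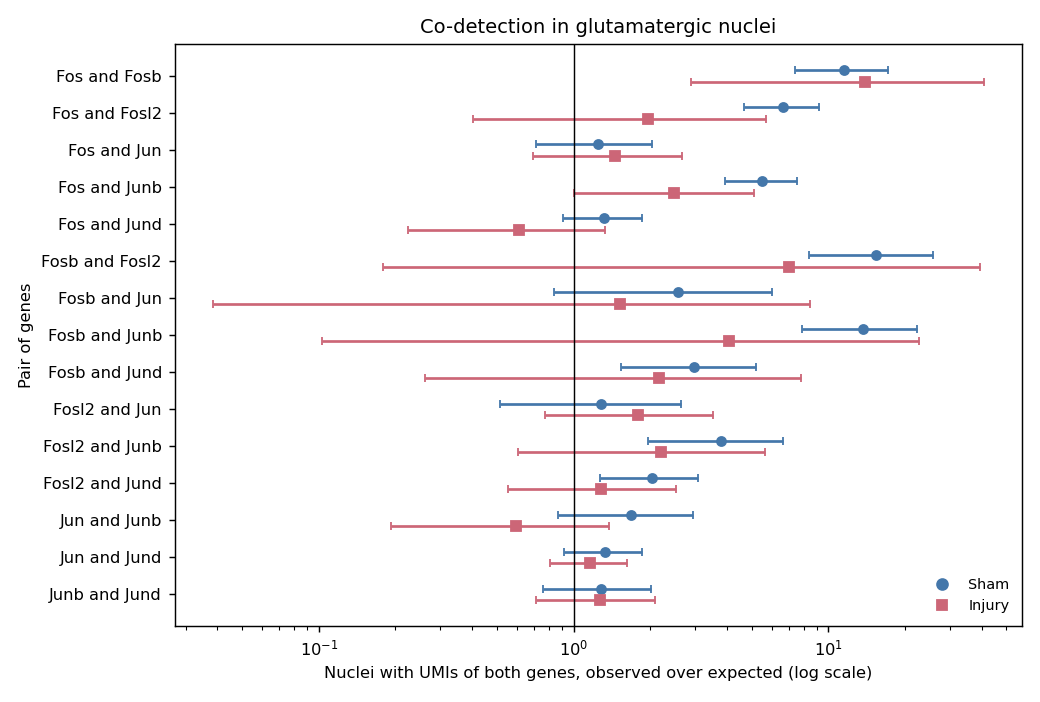
Glutamatergic nuclei with UMIs of both genes of a pair, observed over expected at equal nuclear depth, on a log axis, for the sham (blue circles) and injury (red squares) library with exact Poisson intervals at 95% that treat the expected number as fixed. The line marks 1. Pairs within Fos, Fosb, Fosl2 and Junb lie between 3.79 and 15.4 in the sham library, and every interval of a pair with Jun takes in 1 in both.

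Nuclei with and without Fos were also compared across all other genes. The 243 sham glutamatergic nuclei with Fos had a median of 12441 UMIs, beside 10669 in those without. Genes with at least 20 UMIs in the nuclei with Fos numbered 10950. Among these, log2 ratios with over without Fos were largest for Fosb (4.99), Fosl2 (3.61), Gem (3.60), Junb (3.14) and 1700016P03Rik (3.03, 2.83 to 3.23). Sparse genes, Fosb, Fosl2, Gem and Junb among them, pass the filter of 20 UMIs only where they are high in nuclei with Fos. Gem encodes a small GTPase of the Rad family that is itself induced by activity. The gene 1700016P03Rik, on chromosome 11 from 75172560 to 75177633, contains the microRNA genes Mir212 and Mir132, which are known CREB targets. It had 84.9 CPM in sham nuclei with Fos and 10.4 CPM in those without, and 29.8 and 6.52 CPM in the injury library, a log2 ratio of 2.19 (1.76 to 2.60). In the injury library the same ratio was 3.89 (1.35 to 5.95) for Fosb, 1.04 (-0.87 to 2.46) for Fosl2, 1.14 (-0.10 to 2.16) for Junb and 1.02 (-2.07 to 2.97) for Gem.

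Nuclei with and without Jun were compared in the same way. Among 10959 genes that passed the same filter in nuclei with Jun, which sparse members such as Fosb hardly could, the largest log2 ratios in sham nuclei were those of Gm49691 (1.44), Mxra7 (1.11), Zfp39 (1.08), Gm39027 (1.05) and Creb5 (1.04). The first 4 had 22 to 25 UMIs there, just past the filter, and their injury ratio had an interval that took in 0. Creb5, which encodes a zipper protein related to ATF2 that can pair with Jun, had 20.6 CPM in sham nuclei with Jun and 10.0 CPM in those without, a log2 ratio of 1.04 (0.68 to 1.39). In injury nuclei it had 74.3 and 26.2 CPM, with an interval of the log2 ratio of 1.33 to 1.66, so its level was higher in the injury library in nuclei with Jun and in those without.

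Further partners were taken from lists of known genes. Of 11 activity genes, 10 were found with Fos in sham glutamatergic nuclei more often than depth gives, with an interval above 1, and 3 in injury nuclei. Among all 18132 other genes measured the shares were 2.76% and 0.888% for Fos, from 243 and 105 nuclei with Fos. For Jun the counts were 0 and 1 of the 11, beside 0.938% and 1.94% of all genes. Nr4a1, an orphan nuclear receptor induced by activity, was found with Fos in sham nuclei at 1.79 times the expected number (1.47 to 2.16), and with Jun in an interval of 0.771 to 1.28 times. Of 8 axon injury genes, none was found with Jun beyond expectation in the sham library and 1, Sox11, in the injury library, at 1.32 times (1.09 to 1.60). Atf3, a partner of Jun in injured neurons named here after its values were seen, was in only 5 sham and 10 injury glutamatergic nuclei, too few to compare with Jun.

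Genes that act before AP-1 had small ratios in glutamatergic nuclei, as most genes did, since 0.232% and 1.65% of all genes were 2-fold lower or higher. Of 18 ERK, SRF and CREB pathway genes, all with at least 50 UMIs, none was 2-fold different, and their log2 ratios lay between -0.16 and 0.24, with an interval below 0 for 6 and above 0 for 6. Of 11 JNK pathway genes, which encode the Jun kinases and their scaffolds, none was 2-fold different, 4 had an interval below 0 and 5 above, with Mapk10 at 0.16 (0.14 to 0.18) and Mapk8 at -0.24 (-0.28 to -0.20). Of 10 measured genes for other AP-1 partners and related zipper proteins, none was 2-fold different, and Jdp2, which can repress AP-1, was at 0.38 (0.30 to 0.45). Atf4, a stress response factor named after its values were seen, was the lowest of them, at -0.65 (-0.82 to -0.48). Creb5, whose levels are given above, was not in this list. The intervals are narrow because these genes had many UMIs, with 42704 and 54667 of Mapk10, and they still cover 1 library per group. Of 6 measured axon injury genes, 3 had an interval below 0, with Sox11 lowest at -0.46, and 1 above, Ecel1, named after its values were seen, at 0.66 (0.22 to 1.11).

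Genes induced along with Fos were more divided. Here and in every other list of glutamatergic nuclei, counts of intervals off 0 stand against the 23.9% below and 21.7% above among all genes. Of 9 measured activity genes, 4 had an interval below 0 and 2 above 0. Arc, which encodes a synaptic protein and is itself an immediate early gene, was higher in the injury library, with 26 sham and 97 injury UMIs, or 0.404 and 1.32 CPM, a log2 ratio of 1.70 (1.07 to 2.39). Homer1 was at -0.02 (-0.08 to 0.03), Nr4a1 at 0.13 (0.03 to 0.22) and Bdnf, a neurotrophin, at -0.29 (-0.39 to -0.20). Egr1 and Npas4, activity-induced transcription factors named here after their values were seen, were at -0.99 (-1.25 to -0.73) and -0.89 (-1.08 to -0.70).

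Of 7 measured feedback genes, 3 had an interval below 0 and none above. Dusp1, a phosphatase that acts on JNK, p38 and ERK, was at -0.44 (-0.61 to -0.27), Btg2 at -0.39 and Sik1 at -0.35. Of 10 candidate AP-1 targets, 5 had an interval below 0 and none above. Gadd45b, a stress and activity gene with 66 sham and 36 injury UMIs, was at -1.07 (-1.70 to -0.46), and the neuropeptide gene Cck was at -0.65 (-0.76 to -0.53). These lists were drawn up with the Fos result known.

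In GABAergic nuclei 3 of 8 measured activity genes were at least 2-fold lower in the injury library and none 2-fold higher, beside 0.401% and 2.21% of all genes measured there. They were Egr1, Nr4a3 (named after its values were seen) and Bdnf, with log2 ratios of -1.64, -1.71 and -1.07. Arc was at -0.27 (-0.72 to 0.19) there, and whether it differed between the classes was not tested.

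Signs of stress and of other cell types were compared as well. All 5 measured heat shock genes, often used as a sign of stress during tissue handling, had an interval below 0 in glutamatergic nuclei, beside 23.9% of all genes. Their median log2 ratio was -0.28, and the 7 genes of the list summed to 134 and 117 CPM. Co-detection with Fos had an interval above 1 for 1 of 7 heat shock genes in sham nuclei and for 0 of 7 in injury nuclei, beside 2.76% and 0.888% of all genes. The 8 mitochondrial genes went both ways in glutamatergic nuclei, with 5 intervals above 0 and 2 below, and summed to 175 and 180.0 CPM. The oligodendrocyte list summed to 15.9 and 33.9 CPM in glutamatergic nuclei of the sham and injury pools, with 6 of 6 genes detected in each, and the astrocyte list was at 4.85 and 14.1 CPM with 7 of 7 genes detected. Without nuclei that held 3 or more UMIs of another class's gate genes, the log2 ratio was -1.83 (-2.19 to -1.47) for Fos and 0.32 (0.07 to 0.57) for Jun in glutamatergic nuclei, and -3.10 (-4.05 to -2.26) for Fos and -0.61 (-1.09 to -0.13) for Jun in GABAergic nuclei. The part of heat shock and mitochondrial RNA in these results was not tested, and the surgery, pool and library of each group cannot be told apart.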

How the data were processed

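Thalamic nuclei of 1 sham and 1 injury pool of 4 mice were sorted on propidium iodide by the authors and made into droplet-based 3′ libraries. The deposited tables hold raw UMI counts per gene and barcode, made by the authors with Cell Ranger 6.0.2 on GRCm38. The submitters' processing notes also name bcl2fastq and Seurat 4.0. The use of strand and introns in counting is not given in the sources used here. Ensembl identifiers took symbols from GENCODE M21.

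As in the study, nuclei with over 2% mitochondrial UMIs, under 200 or over 7500 genes were left out (16373 of 16390 sham and 21777 of 21828 injury barcodes were kept). Total depth was 137850696 and 180106314 UMIs. Doublets were kept. Counts were summed by class in Python 3.11.15 (numpy 2.4.6, scipy 1.17.1, matplotlib 3.10.9), and gates and panels are as given with the results. Poisson intervals for sums and Clopper-Pearson intervals for shares and ratios are exact at 95% if the counts are independent. With 1 library per group no test was run. The thinned shares are hypergeometric expectations.

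The members, lists and panels were chosen with earlier results of these data known. The text names the 6 members, list genes at least 2-fold different with at least 50 UMIs in glutamatergic nuclei, up to 4 further genes per list by UMIs, and the 5 genes richest in nuclei with Fos or Jun, with other names marked as chosen later, among them Egr1, Npas4, Nr4a3, Atf3, Atf4 and Ecel1. Alternatives were scaling with edgeR 4.0.16 and DESeq2 1.42.0 (R 4.3.3), means of single nuclei, no filter, stricter gates, fewer possible doublets, thinning and panel settings. The code was tested on simulated counts. Results for 1 marker panel are not reported here.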

Additional observations from a re-analysis of the deposited data

Results flagged for a closer look

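The log2 ratio of Jun between the libraries had opposite signs in the classes of neurons. It was 0.24 in glutamatergic nuclei (0.01 to 0.47) and -0.38 in GABAergic nuclei (-0.81 to 0.05), from 1 library per group, and the difference between the classes was not tested. Among GABAergic nuclei it was -2.14 (-3.76 to -0.76) in the Pax6/Otof/Cdh23 panel and -0.42 (-1.20 to 0.39) in the Six3/Ubash3b panel. With 2 panel UMIs required, the Pax6/Otof/Cdh23 value was -1.09. In the 830 sham and 1323 injury GABAergic nuclei in no panel it was -0.03 (-0.69 to 0.66). Differences between these sets were not tested.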

How the results depend on the processing

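Of 150 alternative ratios of the members, 148 stayed within the counting interval of the reported value and 2 did not. This count does not measure robustness, since some settings could hardly leave the interval. Scaling factors moved a log2 ratio by at most 0.041, and the filter had removed few barcodes. Thinned ratios nearly repeat the means of single nuclei, at -2.0939 and -2.0935 for Fos in glutamatergic nuclei. The sign changed in 4 of the 150, all for Jun in oligodendrocytes, where the reported value of -0.05 has an interval that takes in 0. The 2 that left the interval came from raising the gates to 4 UMIs for neurons and 6 UMIs for glia, where the log2 ratio in glutamatergic nuclei was -1.48 for Fos and -0.056 for Junb. Over its alternatives the ratio of Fos lay between -2.09 and -1.48 in glutamatergic and between -3.10 and -2.55 in GABAergic nuclei, and that of Jun between 0.17 and 0.41 and between -0.61 and -0.36. Leaving out the shared barcodes was chosen after seeing the data. In glia, alternatives were computed for Jun and Jund in oligodendrocytes alone, since the other counts were too small. Of 39 alternative panel ratios, 38 stayed within the interval and 3 changed sign, each from a value whose interval takes in 0.

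The number of genes at least 2-fold different followed the minimum of UMIs. In glutamatergic nuclei 42 genes were lower and 299 higher at 50 UMIs, 122 and 569 at 20 UMIs, and 8 and 105 at 200 UMIs. In GABAergic nuclei these were 61 and 336, 183 and 682, and 13 and 124. With nuclei thinned to 2000 UMIs, sham co-detection was 30.0 times the number expected for Fos and Fosb, 11.5 times for Fos and Fosl2 and 13.8 times for Fos and Junb, beside 11.5, 6.65 and 5.51 unthinned. In injury nuclei the thinned values were lower than unthinned, at 11.4, 1.08 and 1.66 for these pairs. They rest on 0.064, 0.039 and 0.117 expected nuclei with both genes, too few to read, beside 2.85, 2.89 and 4.45 in sham nuclei. The thinned values were not taken within depth deciles. Of 10 thinned alternatives for pairs with Fos, 7 stayed within the reported interval. The other 3, the sham values of these pairs, lay above it. No paired analysis was possible because there was 1 library per group. Members had few UMIs outside neurons, which limits every glial value.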
